A study of Mus musculus with 8 samples.

Results

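The genes described here are 10 that encode subunits of the SWI/SNF chromatin remodelling complexes: Smarca4, Smarca2, Smarcb1, Smarcc1, Smarcd1, Arid1a, Arid1b, Arid2, Pbrm1 and Brd9. An accessible region was counted to a gene when the region's centre lay nearest to that gene's annotated extent, within 100 kb, and 159 of the 160978 regions of the authors' full table met this rule. The farthest lay 30380 bp from its gene, so none was near the limit. The regions come from ATAC-seq, where a transposase inserts adapters into open DNA, of cKit+ Lymph- Ery- bone marrow cells of mice, a sorted fraction in which blood stem and progenitor cells are frequent. The 8 libraries were 4 from mice with acute myeloid leukemia (AML) and 4 from mice labelled normal. The AML libraries were 2 of genotype URE-delta/+;Tet2+/- and 2 of URE-delta/+;Tet2-/-. The normal libraries were 1 each of URE+/+;Tet2+/+, URE-delta/+;Tet2+/+, URE+/+;Tet2+/- and URE+/+;Tet2-/-. The URE is a distal enhancer of Spi1, the gene of the transcription factor PU.1, and Tet2 encodes an enzyme that oxidises methylated cytosine in DNA. All AML libraries carried a URE deletion together with loss of 1 or both Tet2 copies, and no normal library carried both, so leukemia and the combined genotype cannot be told apart. The labels used here give no ages. The AML libraries were sequenced in lanes 6 and 7. Of the normal libraries, URE+/+;Tet2+/+ was in lane 6, URE-delta/+;Tet2+/+ in lane 7, and URE+/+;Tet2+/- and URE+/+;Tet2-/- in lane 8. No value within a lane could be had.

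Each region carried 1 log2 fold change, the authors' value for leukemic over non-leukemic cells with low PU.1, and 1 adjusted p-value. The libraries that make up either side were not given in the sources used here. Without values per library, no SD, interval or depth can stand beside the values that follow. Positions are of the build GRCm38 (mm10), which the submitters' processing notes name. A region is said to have risen or fallen where the authors' adjusted p-value was under 0.001, the limit that matches their own deposited sets. Regions of 1 gene come from the same libraries and are not replicates of each other. Over the start of Kit, the marker used in the sort, lay a region with a log2 average abundance (the authors' read level over libraries) of 3.26 in the authors' deposited table. Of 3 markers of the depleted lymphoid and erythroid cells, Cd79a had no region over its start, and the regions over the starts of Cd3e and Alas2 had abundances of -2.08 and -2.61 in the authors' deposited table. Cd34, a progenitor marker, fell over its start by the authors' deposited table (-2.48, adjusted p = 1.24e-04). In bulk samples fewer cells of a type and less signal per cell cannot be told apart, and the part of cell makeup in the results was not tested. The lowest fold change of the whole table, -7.30, lay nearest to Spi1. Whether that region is the URE, and any part of the URE-delta/+ genotype in its value, was not tested.

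SWI/SNF complexes use the energy of ATP to slide or evict nucleosomes, and in doing so they open enhancers and promoters to transcription factors. Each complex holds 1 of 2 alternative motor subunits, Smarca4 (BRG1) or Smarca2 (BRM), on a core that includes proteins such as Smarcc1 and Smarcd1, while Smarcb1 belongs to the core of BAF and PBAF but not of the non-canonical complex. Further subunits define 3 forms: Arid1a or Arid1b mark the canonical BAF complex, Arid2 and Pbrm1 the PBAF complex, and Brd9 the non-canonical complex. In blood formation the motor subunit Smarca4 is needed for stem and progenitor function and has been studied as a dependency of AML cells.

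At the authors' threshold, few regions of the SWI/SNF genes, and few of the whole table, differed between leukemic and non-leukemic cells. Of the 159 regions, 4 rose and 0 fell at the authors' threshold. This is 2.52% and 0%, where 1.24% of all regions rose and 1.22% fell. The 4 gains belonged to 2 genes, with 3 inside Arid1b and 1 inside Arid1a, both genes of the large DNA-binding BAF subunits. The 3 Arid1b gains lay within 3916 bp of each other, so they are not separate observations along the genome. At an adjusted p under 0.05, 13 regions were higher (8.18%, against 7.98% of all regions) and 7 were lower (4.4%, against 9.21%). The median log2 fold change over the 159 regions was 0.02, equal to that of the whole table at this precision, and the quartiles were -0.66 and 0.62 against -0.71 and 0.60. The members' own values ran from -2.15 to 2.52. The lowest was at Arid1b and the highest at Arid1a. Arid1b held 89 of the 159 regions (56%) and sets most pooled values, so each gene is described apart.

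**Figure D1:**
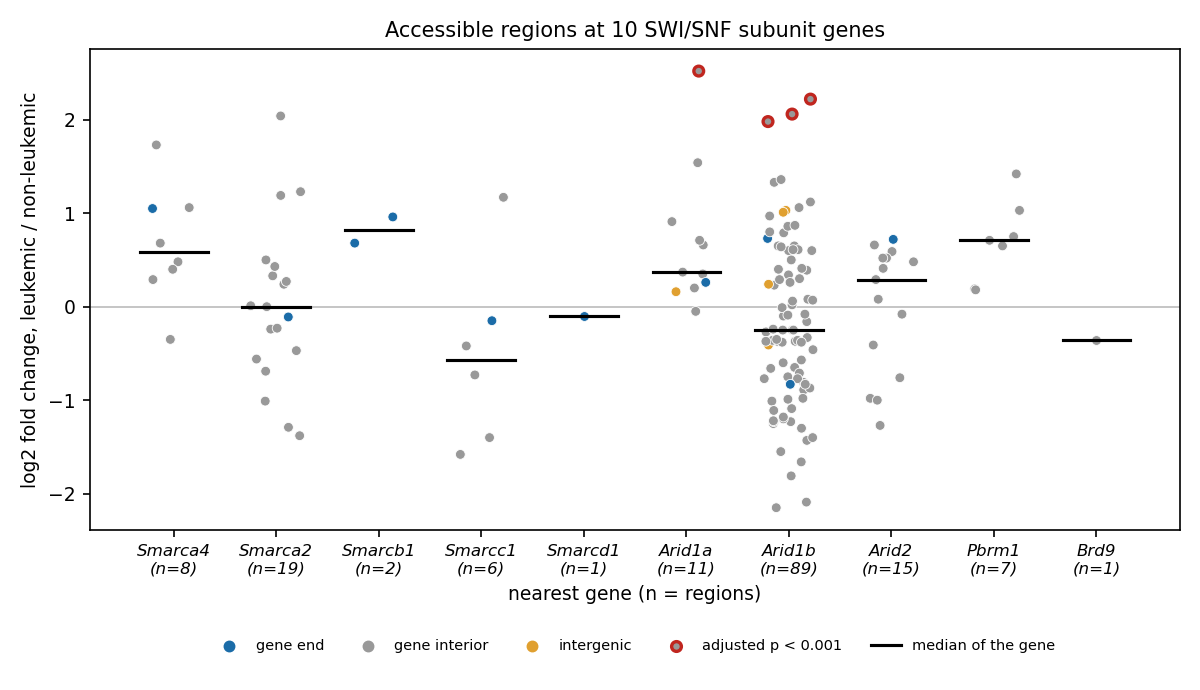
Log2 fold change (leukemic over non-leukemic, y axis) of each of the 159 regions, by the SWI/SNF gene nearest to it (x axis); points are regions coloured by place, black lines are gene medians, and red outlines mark an adjusted p under 0.001. The 4 outlined points are interior regions, 1 at Arid1a (2.52) and 3 at Arid1b (1.98 to 2.22), and medians run from -0.57 at Smarcc1 to 0.82 at Smarcb1.

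The motor subunit gene Smarca4 (chromosome 9, 21616106 to 21704230) had 8 regions, of which 7 had a fold change above 0, with a median of 0.58. None passed the threshold of 0.001, where 1.24% of all regions rose and 1.22% fell. At 0.05, 2 of the interior regions passed, both higher, where 7.98% of all regions were higher and 9.21% lower. The highest Smarca4 value, 1.73 (adjusted p = 0.00237), was at 21695245 to 21695594 in the last part of the gene, by the authors' deposited table. A second interior region at 21626586 to 21626827 had 1.06 (adjusted p = 0.0321) there, by the authors' deposited table. The lowest Smarca4 value was -0.35, at an interior region of low abundance. The 1 gene-end region of Smarca4, over its start at 21615571 to 21617546, had 1.05 (adjusted p = 0.111) according to the authors' deposited table.

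Smarca2 (chromosome 19, 26605073 to 26778321), the alternative motor subunit gene, had values on both sides of 0. Of its 19 regions 10 were above and 9 below, and the median was 0.00. At the threshold of 0.001, 0 passed, where 1.24% of all regions rose and 1.22% fell. At 0.05, 2 were higher and 1 lower, where 7.98% of all regions were higher and 9.21% lower. The authors' deposited table gave 2.04 (adjusted p = 0.0222) for the interior region at 26752659 to 26753724 and 1.23 (adjusted p = 0.0465) for that at 26711355 to 26711544. The lowest, at 26645986 to 26646480, stood at -1.38 (adjusted p = 0.0326) by the authors' deposited table. The lower region lies 41.2 kb from the start of the gene and the higher ones 106.4 and 148.1 kb from it. Its start region, at 26604467 to 26608054, had the highest abundance of all member regions, 5.22, and a fold change of -0.11 (adjusted p = 1) in the authors' deposited table. The non-coding gene Gm52395 overlaps this start and shares the region.

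Of the core subunit genes, none had a region past 0.05, where 7.98% of all regions were higher and 9.21% lower. These genes hold few regions, so this is not read as a trait of theirs. Smarcb1 (chromosome 10, 75896769 to 75921614) encodes a small core subunit whose loss drives rhabdoid tumours. It had 2 regions, both at its ends: 0.68 (adjusted p = 0.243) over the start and 0.96 (adjusted p = 0.0594) near the other end, at 75897419 to 75897607, in the authors' deposited table. Smarcc1 (chromosome 9, 110132024 to 110240178), which encodes the scaffold subunit BAF155, had 6 regions, and 5 of them were below 0. Its 5 interior regions ran from -1.58 to 1.17, with a median of -0.73. The 1 positive value, at 110228698 to 110229839, had an adjusted p of 0.0891 and the lowest one, at 110148729 to 110148914, of 0.135, by the authors' deposited table. The start region of Smarcc1, at 110131004 to 110132692, had -0.15 (adjusted p = 0.85) by the authors' deposited table. Smarcd1 (chromosome 15, 99702287 to 99713995), the BAF60A gene, had only its start region, 99701878 to 99702704, which the authors' deposited table lists with -0.10 (adjusted p = 1). That region is shared with the lncRNA gene Gm34939.

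Arid1a (chromosome 4, 133679008 to 133756769, minus strand) gained accessibility near its 3' end. Its gene product is the large DNA-binding subunit of canonical BAF and is often lost in human cancers. The authors' deposited table put the gained region, from 133679752 to 133680451, at 2.52 (adjusted p = 9.65e-05), the highest of the 159, with an abundance of 0.20. Its centre lies 1093 bp inside the end of the gene, just beyond the 1 kb that defined a gene end. The next highest, at 133695455 to 133695667, stood at 1.54 (adjusted p = 0.00533) by the authors' deposited table. Of the 11 Arid1a regions 10 were above 0, with a median of 0.37, and the lowest was -0.05. The authors' deposited table gave 0.26 (adjusted p = 0.346) for the region over the outer start, at 133756464 to 133757788, and 0.71 (adjusted p = 0.109) for the one over a further annotated start, at 133751606 to 133754811. The gain lay 76.7 kb from the outer start.

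Arid1b (chromosome 17, 4994297 to 5347656), the paralogue of Arid1a, had the most regions and the most calls, with 3 regions that rose and, at 0.05, 6 higher and 6 lower. Of its 89 regions 3.37% rose and 0% fell, against 1.24% and 1.22% of all regions. At 0.05 the share was 6.74% either way, against 7.98% higher and 9.21% lower of all regions. Counted to Arid1b were 25.2 regions per 100 kb of gene length, against 4.33 to 14.1 for the other 9 genes. These figures include regions outside the gene, 4 of the 89 at Arid1b. The 3 gains lay deep in the gene, 268 to 272 kb from its start. They were listed in the authors' deposited table at 1.98 (adjusted p = 9.09e-04; 5261966 to 5263065), 2.22 (adjusted p = 5.25e-04; 5264867 to 5265053) and 2.06 (adjusted p = 7.40e-04; 5265732 to 5265882). Another region between them, at 5263693 to 5263848, had 0.50 (adjusted p = 0.54) and, by the authors' deposited table, a low abundance of -2.46. A further region before them, at 5255479 to 5256139, was at 1.36 (adjusted p = 0.0053) by the authors' deposited table.

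Regions lower at 0.05 lay on both sides of this stretch of gains, 3 before it and 3 after it. By the authors' deposited table the lowest, -2.15 (adjusted p = 0.00953), was at 5310042 to 5310251, and -2.09 (adjusted p = 0.00345) stood at 5293750 to 5294000, both downstream of the gains. Upstream, the region at 5238379 to 5239139 had -1.66 (adjusted p = 0.00202) in the authors' deposited table, the lowest adjusted p among the negative values of Arid1b. Of the 68 Arid1b regions before the gains 44 were below 0, with a median of -0.34, and of the 17 after them 9 were below 0, with a median of -0.08. The lncRNA gene Gm34854 lies inside Arid1b; the 7 regions inside it had a median of -0.77 and the 82 others -0.25. The start region of Arid1b, at 4993548 to 4997560, had 0.39 (adjusted p = 0.579) by the authors' deposited table, and its most abundant region, an interior one at 5189419 to 5190692, had 0.26 (adjusted p = 0.294) and an abundance of 4.36. The 2 regions of Arid1b classed as gene ends, at 5112223 to 5112934 and 5224999 to 5225282, lie at the ends of genes nested in it and had 0.73 and -0.83 in the authors' deposited table. The 4 intergenic regions ran from -0.41 to 1.03, and the farthest, 30380 bp past the gene, had 1.01.

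**Figure D2:**
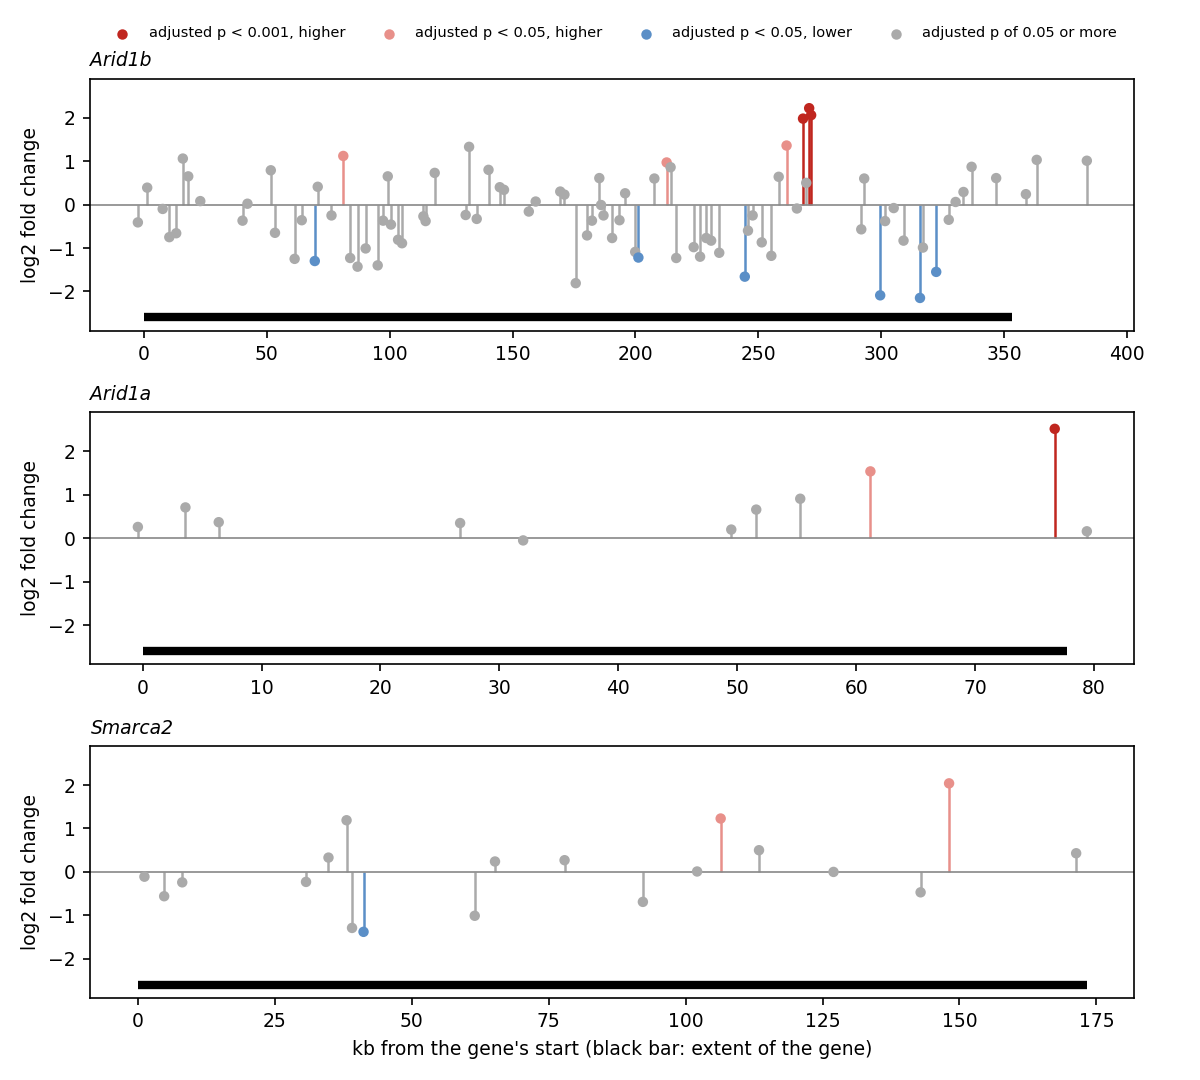
Log2 fold change (y axis) of each region against its distance in kb from the gene's start (x axis) for Arid1b, Arid1a and Smarca2; stems are regions coloured by adjusted p and direction, and black bars show the gene extents. The 3 Arid1b gains stand together 268 to 272 kb from the start with lower regions on either side, the Arid1a gain stands at the far end of the gene, and the regions over the outermost annotated starts of all 3 genes lie between -0.11 and 0.39.

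The genes of the PBAF and non-canonical forms had 0 regions past 0.001, where 1.24% of all regions rose and 1.22% fell. At these shares their regions are too few for the 0 to be read as a trait. Arid2 (chromosome 15, 96287522 to 96405463), which encodes the DNA-binding subunit of PBAF, had 15 regions from -1.27 to 0.72, with a median of 0.29 and a lowest adjusted p of 0.104. The lowest value, at 96358987 to 96359154, had an adjusted p of 0.211 by the authors' deposited table. Its 14 interior regions had a median of 0.18, and its gene-end region, at 96406289 to 96406545, had 0.72 (adjusted p = 0.281) by the authors' deposited table. Pbrm1 (chromosome 14, 31019138 to 31121592), whose product reads acetylated histones through a row of bromodomains, had 7 interior regions and all 7 were above 0, with a median of 0.71. The highest, at 31020356 to 31020667 just inside the start, was at 1.42 (adjusted p = 0.00897) by the authors' deposited table, and the lowest was 0.18. Of these 7 regions 6 were below the median abundance of the table, -1.17. Brd9 (chromosome 13, 73937801 to 73960895), the bromodomain subunit gene of the non-canonical complex, had 1 region, at 73955490 to 73955912, with -0.36 (adjusted p = 0.543) in the authors' deposited table.

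Gene-end regions of the members were wider and had a higher median abundance than interior ones, as in the whole table. None of the gene-end regions passed either threshold. A region was called a gene end when its centre lay within 1 kb of either end of any annotated gene, and gene interior when it lay elsewhere inside a gene. By this rule the regions over the Arid1b start and over the further Arid1a start are interior, as their centres lie more than 1 kb from a gene end. The 10 gene-end regions of the members had a median log2 fold change of 0.47, 6 above and 4 below 0, and 0 of them passed 0.05. Of all gene ends, 1.22% rose and 1.43% fell, 9.79% were higher and 8.42% lower at 0.05, and their median was 0.19. The 144 interior regions had a median of 0.00, with 72 above and 72 below 0, and held all 4 gains and all regions past 0.05. Of these 144, 4 rose and 0 fell, and 13 were higher and 7 lower at 0.05. Interiors of the whole table had a median of -0.02. Of them 1.34% rose and 1.2% fell, and 7.97% were higher and 9.39% lower at 0.05. The even number on each side joins unlike genes: the 83 Arid1b interiors had a median of -0.27 (32 above, 51 below 0), and the 61 of the other 9 genes 0.29 (40 above, 21 below). Median abundance was 0.14 at gene ends and -1.08 in interiors, and median widths were 1075 and 312 bp. Over the whole table the abundances were 0.20 and -1.28, and the widths 698 and 316 bp.

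Some starts were missed by the nearest-gene rule because a neighbouring gene begins or ends beside them. Regions over the starts of Pbrm1 and Brd9 were nearest to Gnl3 and Trip13, and the region over the low-coordinate end of Arid2 was nearest to Gm38469. With these 3 added, each of the 10 genes had a region over its start or, for Arid2, over that end. The authors' deposited table listed the Pbrm1 start region, 31017819 to 31019662, at 1.17 (adjusted p = 0.0257), the Brd9 one, 73936634 to 73938570, at 1.03 (adjusted p = 0.0832), and the Arid2 one, 96283859 to 96288705, at 0.94 (adjusted p = 0.101). With the further annotated start of Arid1a there were 11 such regions. None of the 11 passed 0.001 and only that of Pbrm1 passed 0.05. Of all 10734 regions over starts of protein-coding genes, 86 rose and 218 fell. At 0.05, 934 of those were higher and 938 lower. With only 11 regions, the low counts are not read as a trait of the SWI/SNF starts.

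The 11 start regions differed in log2 abundance. The 6 with a log2 abundance above 2 (Smarca2, Smarcc1, Smarcd1, Arid1b and both starts of Arid1a, 2.95 to 5.22) had fold changes from -0.15 to 0.71, with a median of 0.08. The 5 below 2 (Smarca4, Smarcb1, Arid2, Pbrm1 and Brd9, -0.55 to 1.22) had fold changes from 0.68 to 1.17, with a median of 1.03. The ranges overlap through the further Arid1a start (0.71, abundance 3.50). The limit of 2 was set after these values were seen. The same order of medians held over starts of all protein-coding genes, with 0.03 for the 5164 regions above 2 and 0.49 for the 5570 below 2. Among those starts the region of Smarca4 had an abundance above only 12.7% of the others and that of Smarca2 above 97.7%, although both encode the motor subunit. Abundance was identified by column position and range, and whether it covers the full width of a region is not known. Whether abundance or normalization has a part in the higher values at the starts of lower abundance was not tested.

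**Figure D3:**
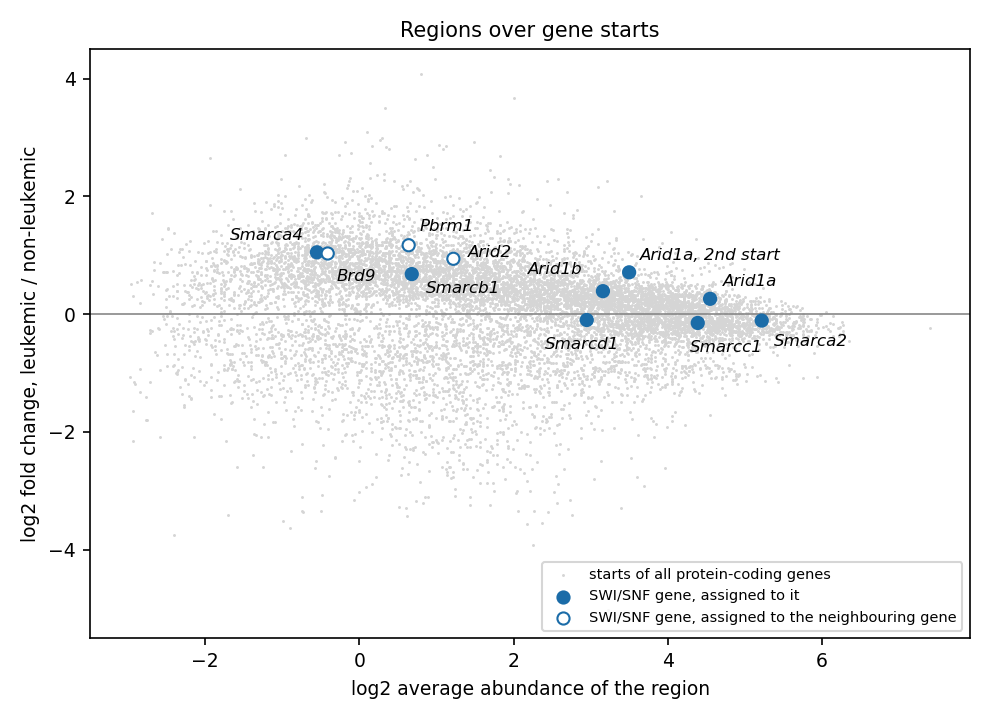
Log2 fold change (y axis) against log2 average abundance (x axis) of regions over gene starts; grey points are 10734 regions over starts of protein-coding genes and blue points the 11 start regions of the 10 SWI/SNF genes, open where the region was nearest to a neighbouring gene. The 6 SWI/SNF start regions above an abundance of 2 lie between -0.15 and 0.71 and the 5 below it between 0.68 and 1.17.

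The promoter sequences of 5 of these starts are printed. They are from regions with an abundance above 2 (Smarca2, Smarcc1, Arid1a) and below 2 (Smarca4, Smarcb1). The sequences are the RefSeq bases (GRCm38.p6) before the annotated start and outside the gene, read 5' to 3' on the gene's strand. Capitals mark exact matches on either strand to GCATGCGC, letters known from the factor NRF1, and to GGGCGG, letters bound by SP1.
Smarca2 (chr19:26604910-26605072, plus strand): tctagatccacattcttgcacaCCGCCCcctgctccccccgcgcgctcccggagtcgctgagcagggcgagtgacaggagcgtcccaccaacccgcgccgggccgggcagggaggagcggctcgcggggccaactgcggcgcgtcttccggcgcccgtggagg
Smarcc1 (chr9:110131774-110132023, plus strand): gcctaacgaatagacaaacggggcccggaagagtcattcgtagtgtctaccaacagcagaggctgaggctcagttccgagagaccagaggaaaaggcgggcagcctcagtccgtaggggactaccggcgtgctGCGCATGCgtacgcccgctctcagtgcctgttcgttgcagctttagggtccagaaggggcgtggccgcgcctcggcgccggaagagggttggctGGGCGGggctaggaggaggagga
Arid1a (chr4:133756770-133757019, minus strand): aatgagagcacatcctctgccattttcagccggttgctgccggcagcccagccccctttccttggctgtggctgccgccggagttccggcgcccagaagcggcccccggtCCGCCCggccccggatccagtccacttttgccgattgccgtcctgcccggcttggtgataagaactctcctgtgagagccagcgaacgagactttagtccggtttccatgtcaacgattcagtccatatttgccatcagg
Smarca4 (chr9:21615919-21616105, plus strand): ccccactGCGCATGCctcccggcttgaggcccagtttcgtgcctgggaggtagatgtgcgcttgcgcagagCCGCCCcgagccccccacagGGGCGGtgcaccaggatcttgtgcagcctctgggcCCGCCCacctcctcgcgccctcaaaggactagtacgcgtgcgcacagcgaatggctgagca
Smarcb1 (chr10:75921615-75921864, minus strand): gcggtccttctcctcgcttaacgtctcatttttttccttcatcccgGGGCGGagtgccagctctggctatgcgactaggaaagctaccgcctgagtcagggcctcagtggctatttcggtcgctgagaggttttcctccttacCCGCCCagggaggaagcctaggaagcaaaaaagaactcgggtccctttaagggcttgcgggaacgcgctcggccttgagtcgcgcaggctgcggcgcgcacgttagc

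The promoters shared a high content of CG dinucleotides. RefSeq windows of 250 bases before and 50 after the start were held for 9 of the 10 genes (11 windows). Their median ratio of observed to expected CpG was 0.98 and their median GC content 71.3%, against 0.38 and 52.7% over all 32851 windows. The SP1 letters GGGCGG were in windows of all 9 genes, and in 35.7% of all windows. The NRF1 letters GCATGCGC were in those of Smarca4, Smarcb1 and Smarcc1, 3 of 9 genes, and in 2.71% of all windows; in Smarcb1 they reach into the part that is not printed. The YY1 letters AAGATGGCG were in the Smarcd1 window alone (1.4% of all), the RUNX letters TGTGGTT in that of Arid1b (5.27%) and the E-box CACGTG in that of Pbrm1 (7.15%). For GAGGAAGT, letters of the PU.1 type, 0 of 9 genes had a match, with 3.2% of all windows. The general ETS letters CCGGAAGT (3.89% of all windows) and the CRE letters TGACGTCA (1.79%) had no match in a member window. The same was true of the CEBP letters TTGCGCAA (0.183%). Neither the NFY letters CCAAT (37.4%) nor the GATA letters AGATAA (11.2%) had one. Starts with an abundance below 2 (Smarca4, Smarcb1) and 1 above it (Smarcc1) alike held the NRF1 letters. These are matches of letters in short windows, and no sequence was read for the gained regions inside Arid1a and Arid1b. Members were counted by gene, while the shares are of all windows and are not matched for GC content. Whether base composition has a part in the matches was not tested.

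Neighbouring regions give a level beside which each gene can be read. Within 1 Mb on either side, other regions had a median of 0.51 at Smarca4, where the gene's own median was 0.58, and 0.37 at Arid1a, equal to the gene's own. Around Arid1b the median was 0.02 (191 regions, quartiles -0.64 and 0.60) against -0.25 for the gene, and around Smarcc1 it was -0.09 against -0.57. Pbrm1 and Smarcb1 had medians of 0.71 and 0.82 in neighbourhoods of 0.09 and 0.28. Around Smarcd1 the median was 0.55 while its 1 region stood at -0.10. Smarca2 had a median of 0.00 in a neighbourhood of -0.25, Arid2 had 0.29 in one of 0.17, and the 1 region of Brd9 had -0.36 in one of 0.15. The medians of the chromosomes that carry the 10 genes ran from -0.05 to 0.14.

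Close to the members, 2 further regions rose but were nearest to non-coding genes and so lie outside the rule. One, 1.4 kb past the end of Smarcd1 at 99714963 to 99715839, had 2.20 (adjusted p = 8.42e-04) and lay nearest to Gm16537 in the authors' deposited table and the RefSeq annotation. Another, 25.3 kb before Smarca2 at 26579654 to 26579918 and inside Gm52395, had 3.53 (adjusted p = 1.34e-05) by the authors' deposited table. With protein-coding genes alone as candidates, 178 regions were counted to the members and 6 of them rose: the 4 above and these 2. Of all regions, 1.24% rose.

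The other subunit genes of the same complexes showed 0 regions past 0.001, where 1.24% of all regions rose and 1.22% fell. They were 19 genes with 151 regions, among them Smarcc2, Smarce1, Actl6a, Dpf2, Phf10, Brd7 and Bicra. At 0.05, 12 of their regions (7.95%, against 7.98% of all) were higher and 6 (3.97%, against 9.21%) lower, and the median was 0.22. The lowest adjusted p values among these genes were at Bicral, a subunit gene of the non-canonical complex (1.68, adjusted p = 0.00204), Dpf3, a histone reader gene of muscle and nerve BAF (1.71, adjusted p = 0.00596), and Actb, the beta-actin gene (-1.02, adjusted p = 0.0117), in the authors' deposited table.

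Genes of the other remodeller families are given for scale, with no test between lists. The 11 ISWI genes had 127 regions with 6 gains, all at Baz1a, and 4 losses, all at Baz2b. The 18 CHD and NuRD genes had 223 regions with 1 gain, at Chd7 (2.26, adjusted p = 1.82e-04), and 3 losses, at Chd9, in the authors' deposited table. The 8 INO80 and SRCAP genes had 34 regions with 1 gain, at Ruvbl2 (2.45, adjusted p = 3.12e-05), in the authors' deposited table. In that order of lists, 4.72%, 0.448% and 2.94% of the regions rose, against 1.24% of all regions. The shares that fell were 3.15%, 1.35% and 0%, against 1.22% of all regions. Medians were -0.14, 0.26 and 0.25, beside 0.02 for the 10 SWI/SNF genes. The share lower at 0.05 ran from 3.97% in the other SWI/SNF genes to 17.3% in the ISWI list. Of the 22 ISWI regions lower at 0.05, 20 were at Baz2b, and the other 10 ISWI genes had 2 of 78 (2.56%).

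**Figure D4:**
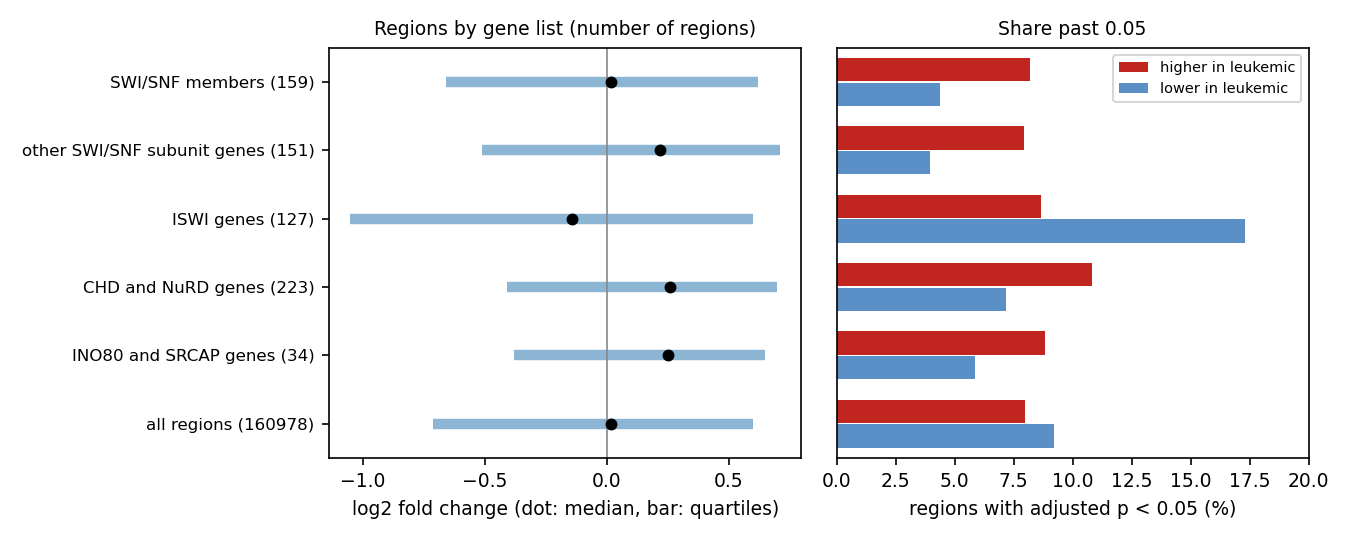
Left, median (dot) and quartiles (bar) of the log2 fold change of regions at 5 lists of remodeller genes and in the whole table, with the number of regions in brackets; right, the percentage of those regions with an adjusted p under 0.05, higher (red) or lower (blue) in leukemic cells. SWI/SNF members had 8.18% higher and 4.4% lower, where the whole table had 7.98% and 9.21%.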

How the data were processed

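ATAC-seq values come from 1 table in which the authors compared leukemic and non-leukemic cells. Per the submitters' processing notes, reads were processed against GRCm38 (mm10), and Bowtie2 2.4.1, SAMtools 1.10.2 and Genrich 0.6 are named there. The title of the table names csaw. Settings, read filters and any shift for the transposase were not given in the sources used here. Deposited log2 fold changes and log2 average abundances per region are the authors' values, identified by column position and range. The deposited p-value is the authors' own, and the adjusted p-value equals a Benjamini-Hochberg adjustment over all 160978 regions to within 2.39e-15. The deposited higher (2002), lower (1961) and unchanged (19123) sets equal adjusted p under 0.001 with that sign, or over 0.9. No columns per library were used, so depth is unknown and no test over mice was made. Positions stand as in the table, and the base from which its starts count is unknown.

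Genes were 49993 RefSeq extents of GRCm38.p6. A region tied between overlapping genes was counted to the member (13 of 159). Places of regions were tested on simulated data. Promoter windows and strand came from RefSeq; Arid2 had no window. Named were all members, every region past 0.001, every region within 1 kb of a member's own end, and the highest and lowest among those under 0.05 (of all its regions where none was). Other subunit genes named for their values were the 3 with the lowest adjusted p. Further regions and genes were named after their values were seen. Members and lists were chosen with earlier results of these data known. Values were computed with Python 3.11.15, pandas 2.3.3 and NumPy 2.4.6. Alternatives varied threshold, distance, gene set, ties, abundance, point of placing and width of gene ends. Further markers of the depleted cells are not reported here.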

Additional observations from a re-analysis of the deposited data

How the results depend on the processing

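Losses at 0.001 stayed at 0 with protein-coding genes only and with placing by overlap, the alternatives that could add regions. The others, apart from the looser threshold, kept part of the same regions or tightened the call. There the 0 could not change and says nothing further. The 4 gains held with a 20 kb limit, with 1 kb, without tied regions, without regions of low abundance and with placing by overlap. An adjusted p under 0.0001 left 1 gain, at Arid1a, and one under 0.05 gave 13 higher and 7 lower regions. With protein-coding genes only there were 6 gains among 178 regions, and with a log2 fold change of at least 2 there were 3. The pooled median of 0.02 became -0.08 without regions under the median abundance. Leaving out Arid1b, chosen after the data were seen, gave a median of 0.29 over all regions, 1 gain, and 61 interior regions with a median of 0.29. The gene-end median of 0.47 became 0.26 with ends of 500 bp, 0.68 with the ends of protein-coding genes only and 0.68 with the ends of the member gene only. With ends of 3 kb there were 23 gene-end regions, the Arid1a gain among them. Medians of single genes rest on 1 to 19 regions except at Arid1b, and 10 values at single genes or in their number moved. Without low-abundance regions 84 regions were left, and medians went from -0.57 to 0.51 at Smarcc1, 0.58 to 1.06 at Smarca4, 0.71 to 1.42 at Pbrm1, 0.00 to -0.24 at Smarca2 and -0.25 to -0.37 at Arid1b. With protein-coding genes only, Smarcd1 went from -0.10 to 1.05 and Smarca2 to -0.14. Placing by overlap took Brd9 from -0.36 to 0.33, and the 1 kb limit took Arid1a from 0.37 to 0.51. The causes were not tested. Leaving out replicates was not run, and no paired analysis was possible because the table holds 1 value per region. Unknown depth limits every fold change.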
